A study of Mus musculus with 10 samples.

Results

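Cartilage matrix and chondrocyte genes were examined in mouse sarcomas driven by the CIC::DUX4 fusion and in sarcomas of a second mouse model, named KP. The set holds 33 genes of the 56750 features counted, taken as a fixed list of cartilage collagens, proteoglycans, adaptor proteins, small secreted proteins and chondrocyte regulators and matched by gene symbol. No measured value entered that list, although it was drawn up with earlier results of these data known. All 33 were found, and all 33 passed the filter on low counts that left 24743 genes for testing. Epyc and Scrg1 lay under the count minimum of that filter, 0.165 CPM (counts divided by the library total on the usual CPM scale), in both KP tumors and so passed only through dFLEx tumors. The filter asks for that minimum in as many tumors as the smaller group holds. Col9a2, Matn1, Matn3, Cnmd, Snorc and Clec3a lay under it in KP tumor 3800, so they could not have passed on KP tumors alone.

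The data were bulk RNA-seq counts from flash-frozen tumors, with RNA of each tumor divided into 2 duplicate libraries. The dFLEx group comprised 3 tumors (170019, 170024 and 170025) of genotype dFLEx CDS +/-, mice that carry a CIC::DUX4 construct at Rosa26 behind the ubiquitous CAG promoter. The fusion is read only after both Cre and FLP recombinases have acted, and tumors were started by electroporating plasmids for both enzymes into the gastrocnemius muscle of mice 6 to 12 weeks old. The KP group comprised 2 tumors (3800 and 3802) whose genotype includes p53fl/fl, a p53 gene that can be deleted by Cre. The sources used here do not give the site, age or recombinase delivery of the KP tumors, and all 5 samples are labelled only as tumor. Genotype, the way tumors were started and whatever else set the mice apart therefore cannot be told apart. Each library held between 20503474 and 46302223 counts, and 9 of the 10 labelled libraries were analysed here, so that 3802 rests on a single library with the lowest total. That library also had the most features with a count, 36904 against 24280 to 31768 in the others. Levels are CPM of a tumor's summed duplicates scaled by the trimmed mean of M values (TMM), and log2 fold changes are dFLEx minus KP from edgeR. A gene is said to rise or fall only where its p adjusted by Benjamini-Hochberg over all 24743 genes was under 0.05. The fusion transcript itself was at 105, 202 and 423 CPM in 170019, 170024 and 170025 and at 0 in 3800, as the labels of the groups imply. In 3802 it was at 0.244 CPM (6 counts), which the KP label does not imply, and the origin of these counts was not tested.

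Cartilage is a tissue of few cells in much matrix. Its fibrils are made of type II collagen with type XI collagen inside and type IX collagen on the surface, and the space between them is filled by aggrecan, a giant proteoglycan that is fastened to hyaluronan by link protein and holds water. Chondrocytes switch this programme on through SOX9, which works together with SOX5 and SOX6, and in the growth plate they pass from a proliferating stage to a hypertrophic stage marked by type X collagen.

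Across the set, 28 of the 33 genes had a log2 fold change above 0 and 5 below 0. The median was 3.19, against -0.18 over all 24743 genes, and 3.17 with Scrg1, which had no count in either KP tumor, set at its lower bound. Acan and Cytl1, 2 members of 33, rose in dFLEx tumors, where 0.101% of all genes tested passed in that direction. No member fell, where 0.0808% of all genes did. At an unadjusted p under 0.05 there were 17 members higher and 2 lower, beside 5.65% and 4.93% of all genes. In 20 members every dFLEx tumor lay above every KP tumor, beside 13.7% of all genes, and in 2 every dFLEx tumor lay below, beside 11.7%. The remaining 11 overlapped. Among the 31 members besides Epyc and Scrg1, 26 were above 0, 16 were higher at an unadjusted p under 0.05 and 19 lay higher in every dFLEx tumor. These 31 still include Col9a2, Matn1, Matn3, Cnmd, Snorc and Clec3a, which needed dFLEx tumors to pass the filter. Under DESeq2 on the same tumor sums 15 members, of them 14 besides Epyc and Scrg1, were called higher and 0 lower, beside 3.78% and 2.88% of the genes with an adjusted p, and under limma-voom, in which libraries of 1 tumor share a random effect, 7 were called higher and 0 lower, beside 1.61% and 1.17%.

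**Figure D1:**
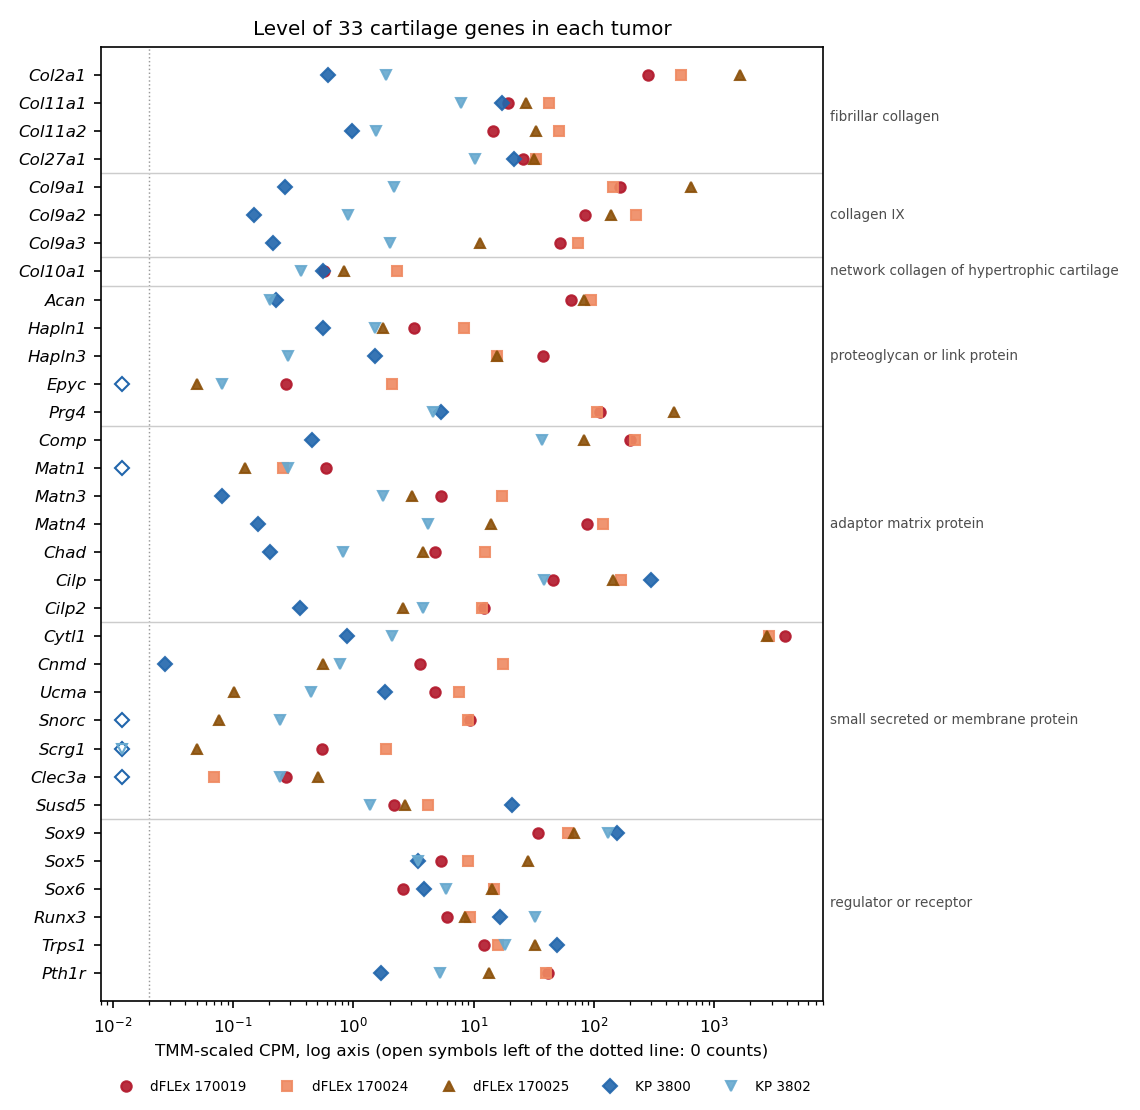
Level of each of the 33 genes in each tumor, as TMM-scaled CPM on a log axis, with genes grouped by role and open symbols for 0 counts. Cytl1, Acan, Col2a1, Col9a2 and Col9a1 show the widest gaps between the dFLEx tumors (red, orange and brown) and the KP tumors (blue), while Sox9 and Runx3 have both KP tumors to the right.

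The fibrillar collagens were led by Col2a1, which encodes the chain of type II collagen (chromosome 15, 97873483 to 97902576 in mm39). Col2a1 was at 282, 528 and 1636 CPM in 170019, 170024 and 170025 and at 0.618 and 1.87 CPM in 3800 and 3802. The groups were far apart, with the lowest dFLEx tumor at 151 times the highest KP tumor, and 170025 stood above the other dFLEx tumors. The log2 fold change was 9.38 (SE 1.32), and its adjusted p of 0.0521 in edgeR missed the threshold. Col11a2, a chain of type XI collagen, was at 14.6, 51.6 and 33.2 CPM in the dFLEx tumors and at 0.967 and 1.54 CPM in the KP tumors. These groups did not overlap either, and the log2 fold change was 4.73 (SE 0.87, adjusted p 0.0936). By contrast Col11a1, whose product joins the same fibrils, was at 19.5, 42.0 and 27.3 CPM against 17.3 and 7.80 CPM, with 170019 and 3800 nearly level. Its log2 fold change was 1.23 (SE 0.68, adjusted p 0.645). Col27a1, a further fibrillar collagen of cartilage, ran from 25.9 to 32.9 CPM in dFLEx and was at 21.8 and 10.2 CPM in KP. All 4 fibrillar genes thus lay higher in every dFLEx tumor, but in Col11a1 and Col27a1 the gap between the nearest tumors was smaller than the range within either group.

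Type IX collagen is built from the products of Col9a1, Col9a2 and Col9a3. Col9a1 (chromosome 1, 24216691 to 24291765) was at 165, 144 and 641 CPM in 170019, 170024 and 170025 and at 0.269 and 2.19 CPM in 3800 and 3802. Col9a2 (chromosome 4, 120896582 to 120912519) was at 83.6, 226 and 139 CPM in dFLEx and at 0.148 and 0.894 CPM in KP. Col9a3 was at 52.3, 73.9 and 11.2 CPM in dFLEx and at 0.215 and 2.03 CPM in KP. None of the 3 overlapped between groups, and the tumor with the most Col9a1, 170025, had the least Col9a3. Their log2 fold changes were 8.04 (SE 1.45, adjusted p 0.0920), 8.23 (SE 1.20, adjusted p 0.0626) and 5.38 (SE 1.35, adjusted p 0.182). Per kilobase of exon, Col9a1 stood at 2.40 times Col9a3 in 170019, 1.48 times in 170024 and 43.6 times in 170025, and at 1.21, 0.391 and 2.81 times Col9a2. The ratios of the chains at the RNA level therefore differed between the dFLEx tumors, with 170025 highest for both. Of the exonic bases of Col9a3, 6.1% are shared with Tcfl5, and reads there were not assigned to either gene. Col10a1, the network collagen of hypertrophic chondrocytes, stayed low at 0.572, 2.32 and 0.831 CPM in dFLEx and 0.564 and 0.366 CPM in KP. Its log2 fold change was 1.41 (SE 1.08, adjusted p 0.814), and per kilobase Col2a1 exceeded it 167, 77.0 and 666 times in 170019, 170024 and 170025.

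Acan, which encodes aggrecan (chromosome 7, 78703231 to 78764847), rose in dFLEx tumors. It was at 65.0, 94.8 and 82.4 CPM in the dFLEx tumors (80.7 ± 14.9, SD, n = 3) and at 0.228 and 0.203 CPM in the KP tumors (0.216 ± 0.0178, SD, n = 2). The KP levels rest on 17 counts in 3800 and 5 in 3802. The lowest dFLEx tumor exceeded the highest KP tumor 285 times, and the highest dFLEx tumor was 1.46 times the lowest. In edgeR the log2 fold change was 8.52 (SE 0.82, adjusted p 0.0248). That call was lost without 170019 (adjusted p 0.113), without 170024 (0.118) or without 3800 (0.0724), with fold changes between 8.39 and 8.78 whichever tumor was left out.

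The link proteins did not share that contrast in size. Hapln1, the link protein of cartilage that locks aggrecan to hyaluronan, was at 3.18, 8.27 and 1.78 CPM in dFLEx and 0.564 and 1.5 CPM in KP. Although the groups did not overlap, 170025 was 1.18 times 3802, and the log2 fold change was 2.11 (SE 0.96, adjusted p 0.512). Per kilobase, Acan stood at 16.1, 9.05 and 36.7 times Hapln1 in the dFLEx tumors and at 0.320 and 0.107 times in the KP tumors. Hapln3, a related link protein whose gene lies next to Acan on the opposite strand (78764850 to 78780766), was at 37.4, 15.6 and 15.7 CPM against 1.5 and 0.284 CPM. Here too the groups were apart, and the log2 fold change was 4.64 (SE 1.02, adjusted p 0.131). The 2 neighbouring genes share no exonic base, and counting took no account of strand.

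Prg4 encodes lubricin, the lubricant of joint surfaces made by superficial chondrocytes and synovial lining cells (chromosome 1, 150325163 to 150341916). It was at 112, 107 and 468 CPM in dFLEx and at 5.39 and 4.63 CPM in KP. The groups were separated by 19.9 times, and 170025 again stood highest. The log2 fold change was 5.51 (SE 1.00, adjusted p 0.0936). The small proteoglycan gene Epyc was near the limit of detection, at 0.274, 2.10 and 0.0504 CPM in dFLEx and at 0 and 0.0813 CPM in KP, and its groups overlapped. For Epyc 40.6% of the exonic bases are shared with Gm10754, so its counts cover only the rest of the gene. Besides Epyc and Col9a3, smaller shares were 9.3% in Sox5 (with Sox5os1), 4.8% in Prg4 and 3.2% in Pth1r. They were 2.9% in Matn4, 0.6% in Col10a1 and 0.2% in Trps1.

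Adaptor proteins that tie collagen fibrils to the proteoglycan matrix were next. Comp, a pentameric fibril-binding protein also made by tendon, was at 201, 220 and 82.4 CPM in 170019, 170024 and 170025, at 0.457 CPM in 3800 and at 36.9 CPM in 3802. The KP tumors thus differed from each other 80.7 times, more than the 2.24 times that parted 170025 from 3802. The log2 fold change was 3.17 (SE 1.49, adjusted p 0.537), and without 3802 it was 8.53 with an adjusted p of 0.0217. Matn4, a matrilin, was at 88.2, 120 and 13.9 CPM in dFLEx and at 0.161 and 4.19 CPM in KP. The groups did not overlap, and the log2 fold change of 5.11 (SE 1.58, adjusted p 0.271) passed without 3802 (8.84, adjusted p 0.0491). Matn3 was at 5.40, 17.2 and 3.10 CPM against 0.0806 and 1.75 CPM, and Chad, a leucine-rich protein that binds chondrocytes, at 4.80, 12.5 and 3.80 CPM against 0.202 and 0.813 CPM. In both genes every dFLEx tumor lay higher, 170024 had the most and 170025 the least, and the log2 fold changes were 3.27 (SE 1.38, adjusted p 0.459) and 3.83 (SE 1.02, adjusted p 0.204).

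The other adaptor genes overlapped between groups. Cilp, which encodes a protein of the intermediate layer of cartilage, was at 46.1, 168 and 145 CPM in dFLEx and at 300 and 38.4 CPM in KP. The KP tumors lay on either side of all dFLEx tumors, the log2 fold change was -0.50 (SE 0.91, adjusted p 0.937), and it was 1.81 without 3800. Its relative Cilp2 was at 12.3, 11.7 and 2.58 CPM against 0.363 and 3.82 CPM, with 170025 below 3802. Matn1, the matrilin of hyaline cartilage, had between 10 and 24 counts in each dFLEx tumor, 0 in 3800 and 7 in 3802. At that depth, with 3 counts corresponding to 0.122 CPM in 3802, no difference in Matn1 was detectable (adjusted p 0.926).

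Among the small secreted and membrane proteins, Cytl1 had the highest level of the set. Cytl1, a cytokine-like protein first described in blood progenitors and also made by chondrocytes (chromosome 5, 37892863 to 37897164), was at 3869, 2854 and 2737 CPM in 170019, 170024 and 170025 and at 0.887 and 2.11 CPM in 3800 and 3802. The dFLEx tumors lay close together, the lowest of them at 1295 times the highest KP tumor. In edgeR the log2 fold change was 11.05 (SE 0.94, adjusted p 0.0245), which placed it at rank 2 by p of the 24743 genes, and per kilobase it held rank 13 by mean dFLEx level. The call was lost without 170019 (adjusted p 0.113), without 170024 (0.118) and with upper-quartile scaling (0.0616). Cytl1 alone made up 74.2%, 58.0% and 43.8% of the summed CPM of the 33 genes in 170019, 170024 and 170025. Without it the set summed to 1343, 2068 and 3509 CPM in the dFLEx tumors and to 602 and 320 CPM in the KP tumors, and 170025 had the highest sum of the 3 with and without it.

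The other members of this class were scarce and uneven. Snorc, a small membrane proteoglycan of chondrocytes, was at 9.30 and 9.02 CPM in 170019 and 170024 but at 0.0756 CPM (6 counts) in 170025, and at 0 and 0.244 CPM in KP. Cnmd, which encodes chondromodulin, an inhibitor of vessel growth in cartilage, was at 3.58, 17.4 and 0.554 CPM against 0.0269 and 0.772 CPM. Ucma, a vitamin K-dependent protein of resting chondrocytes, was at 4.73, 7.53 and 0.101 CPM against 1.83 and 0.447 CPM. In each of these genes 170019 and 170024 lay above both KP tumors and 170025 lay below at least 1 of them, so the groups overlapped. Scrg1 had 22, 107 and 4 counts in 170019, 170024 and 170025 and none in either KP tumor. A count of 0 in 3802 allows 0.122 CPM (3 counts) or more, above the 0.0504 CPM of 170025. A difference was therefore not detectable in that tumor, and no fold change is given (adjusted p 0.310). Clec3a, a lectin of cartilage, had at most 40 counts in any tumor and overlapped. Susd5 was at 2.19, 4.14 and 2.71 CPM in dFLEx, at 20.7 CPM in 3800 and at 1.38 CPM in 3802, and its log2 fold change of -1.87 (SE 0.99, adjusted p 0.620) became 1.29 without 3800.

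The regulators and receptors were divided, with 3 of 6 above 0 and 3 below. Sox9, the transcription factor that starts chondrocyte differentiation (chromosome 11, 112673050 to 112678586), was at 34.5, 61.3 and 68.4 CPM in dFLEx and at 155 and 132 CPM in KP. Every dFLEx tumor lay below both KP tumors, and the log2 fold change was -1.39 (SE 0.56, adjusted p 0.422). Col2a1, a known target of SOX9, stood per kilobase at 3.65, 3.85 and 10.7 times Sox9 in the dFLEx tumors and at 0.00178 and 0.00633 times in the KP tumors. Sox5, a partner of SOX9, was at 5.37, 8.91 and 28.4 CPM against 3.43 and 3.45 CPM, with no overlap and a value of 2.05 for the log2 fold change (SE 0.87, adjusted p 0.459). Sox6, the other partner, was at 2.61, 14.8 and 14.1 CPM against 3.88 and 5.85 CPM, with 170019 below both KP tumors. The SOX trio therefore had no common direction at the RNA level.

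Runx3, a factor of chondrocyte maturation that T cells also use (chromosome 4, 134847963 to 134905301), was at 5.95, 9.38 and 8.45 CPM in dFLEx and at 16.5 and 32.5 CPM in KP. It was the second member with every dFLEx tumor below both KP tumors, and the log2 fold change was -1.63 (SE 0.60, adjusted p 0.383). The summed level of 6 T cell markers also lay lower in dFLEx, at 6.25 to 8.63 CPM against 11.3 and 51.4 CPM, and its part in the Runx3 values was not tested. Trps1, a transcriptional repressor, was at 12.1, 15.8 and 32.1 CPM against 48.9 and 18.4 CPM. The groups overlapped, and its log2 fold change of -0.75 was 0.29 without 3800. Pth1r, the receptor through which parathyroid hormone-related protein holds back hypertrophy, was at 41.9, 39.7 and 13.4 CPM against 1.69 and 5.28 CPM. It lay higher in every dFLEx tumor, and the log2 fold change was 3.19 (SE 0.88, adjusted p 0.215).

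**Figure D2:**
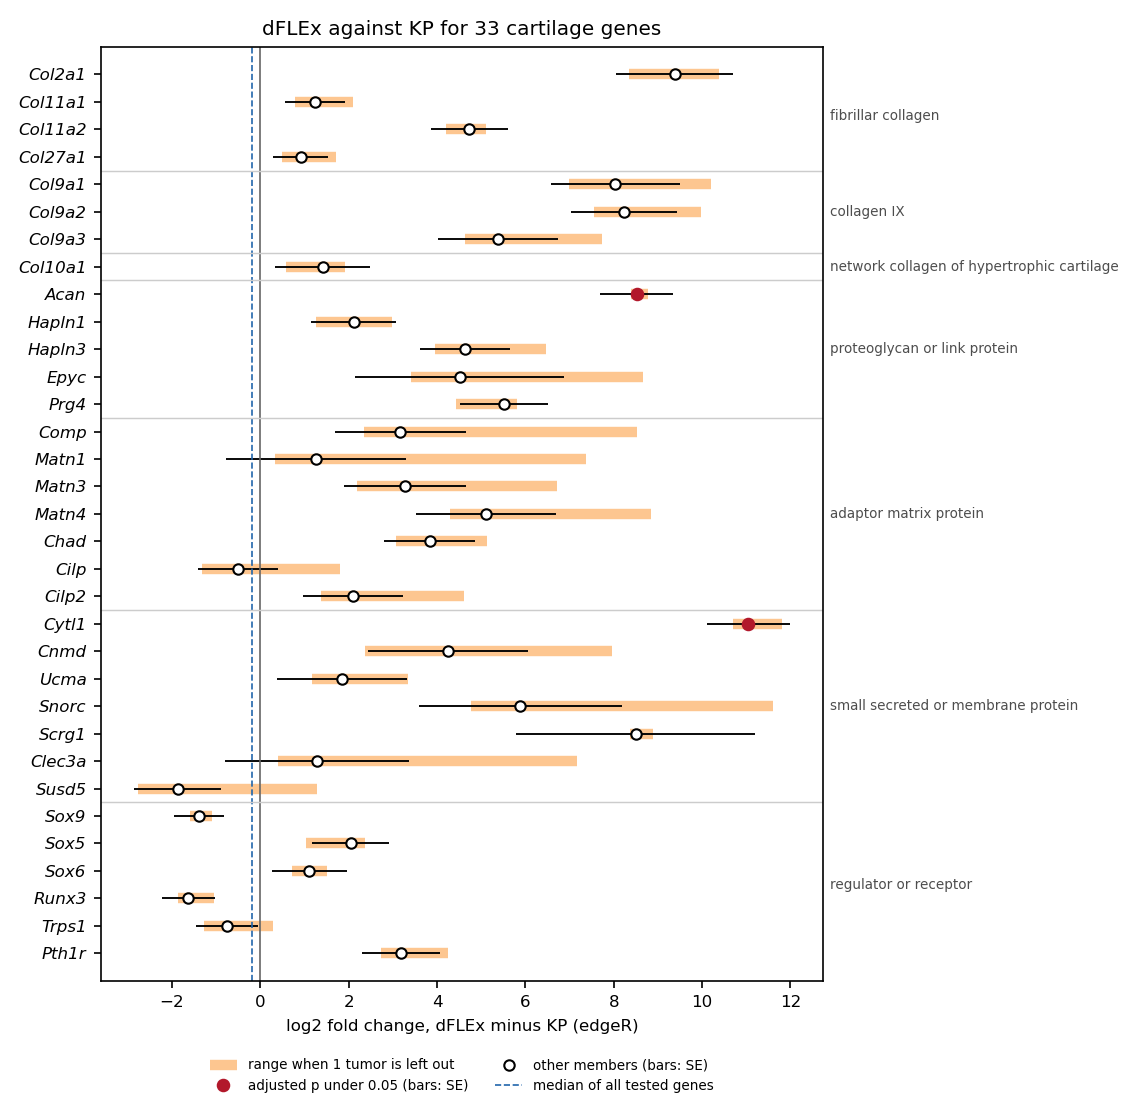
log2 fold change of each gene, dFLEx minus KP, with bars for the SE and shaded bands for the lowest and highest value when 1 tumor is left out. The points of Acan (8.52) and Cytl1 (11.05) are filled because their adjusted p was under 0.05, and the bands of Cilp, Susd5 and Trps1 cross 0.

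The spread between dFLEx tumors was wide. Over the 28 members with a mean of at least 100 counts, the median coefficient of variation was 58.7% between the 3 dFLEx tumors, where it was 43.2% over the 13703 genes tested with such a mean. Between duplicate libraries, which share 1 RNA, it was 12.4%, 5.77% and 3.54% in 170019, 170024 and 170025. Tumor 170024 had the highest level of 20 of the 33 genes, although it was the highest of the 3 for 22.0% of all genes tested. Tumor 170025 was highest for 7 members, among them Col2a1, Col9a1, Prg4, Sox5 and Sox9, although it was the highest for 38.5% of all genes tested. It was lowest for 15 members. Shares over all genes were not taken for the lowest tumor or for gaps of at least 10 times. In 5 members the highest and lowest dFLEx tumors were at least 10 times apart, and in all 5 (Epyc, Cnmd, Ucma, Snorc and Scrg1) the lowest was 170025. That tumor also had the most fusion transcript, and with 3 tumors no relation between the fusion and these genes was tested.

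**Figure D3:**
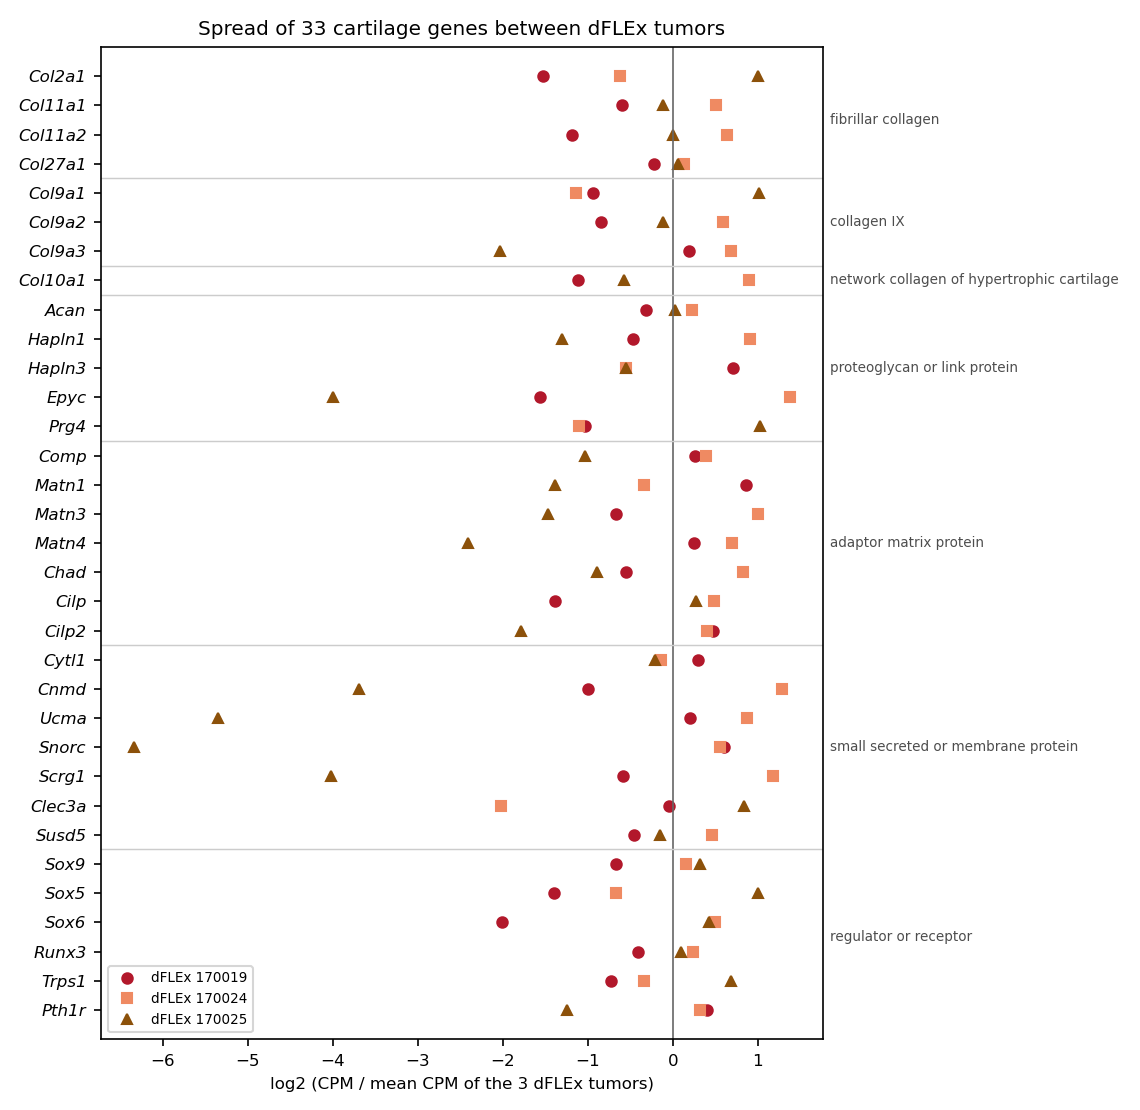
Level of each gene in the 3 dFLEx tumors relative to their mean, on a log2 axis, with genes grouped by role. Symbols for 170025 lie to the right for Col2a1, Col9a1 and Prg4 and far to the left for Snorc, Ucma, Scrg1, Epyc and Cnmd, while Acan and Cytl1 lie close to 0 in all 3 tumors.

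Between the KP tumors, the level was higher in 3802 than in 3800 for 21 members, lower for 11 and equal for 1, beside 53.4% of all genes higher in 3802. Of the members counted in both KP tumors, Comp differed most. The duplicates of 3800 had a median coefficient of variation of 23.8% over the 28 members with a mean of at least 100 counts. Col2a1, with 46 counts in 3800, was at 1.30 and 0.195 CPM of library total in its duplicates, whereas Sox9 was at 167 and 163 CPM. The cause of the Col2a1 difference was not tested. Leaving out 3802 raised the median of the set from 3.19 to 5.13 and the number of members called from 2 to 7, which were Acan, Col2a1, Col9a1, Col9a2, Comp, Cytl1 and Matn4. Over all genes, 0.646% were called higher without 3802, also more than the 0.101% with it. Leaving out 170019 or 170024 left 0 genes called in edgeR, members or others, with 13 and 12 members at an unadjusted p under 0.05 beside 8.51% and 6.18% of all genes.

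How the tumors were tested set the number of calls. Without the filter on low counts edgeR called 16 members, all higher, beside 1.19% of all genes then tested. Taking each library as an independent sample, which counts duplicates of 1 tumor as separate animals, gave 15 calls, of which 12 were higher and 3 (Runx3, Sox9 and Susd5) lower, beside 8.24% and 8.88% of all genes. The 3 lower members were thus a share near that of all genes. Acan and Cytl1 were called by edgeR, DESeq2 and limma-voom on the full set of tumors. Col2a1, Col9a1, Col9a2 and Prg4 were called by DESeq2 and limma-voom and missed in edgeR.

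**Figure D4:**
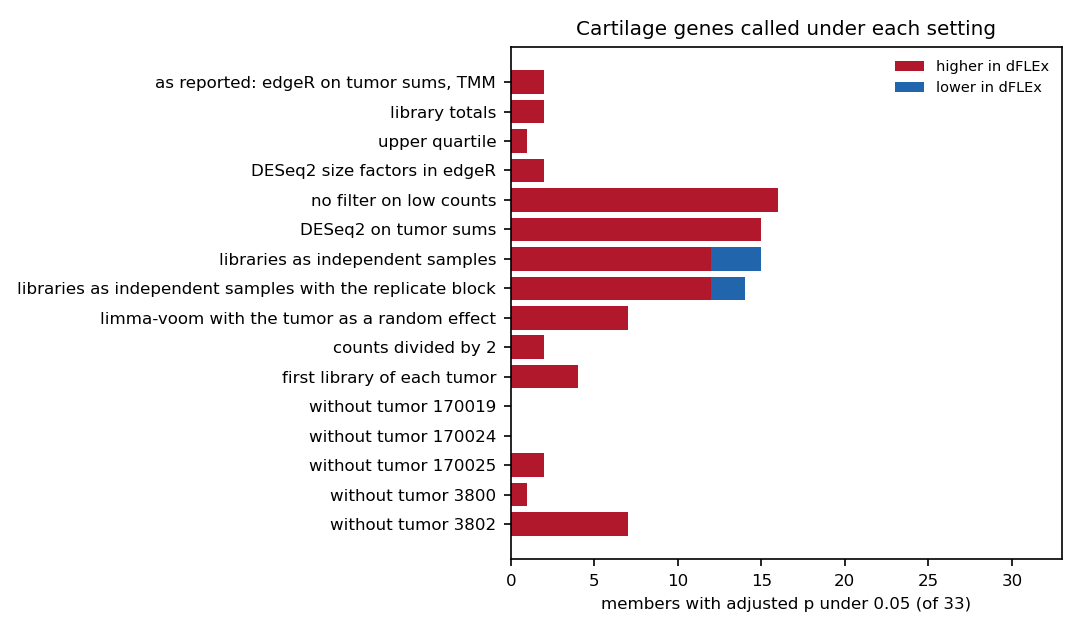
Number of the 33 genes with an adjusted p under 0.05 under each setting, as bars in red for higher and blue for lower in dFLEx. The count is 2 as reported, runs from 0 to 7 as tumors are left out in turn, and reaches 16 without the filter on low counts.

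Neighbouring pathways were set beside the matrix genes. Of 22 genes for chondroitin sulfate synthesis and sulfation, which build the sugar chains of aggrecan, 15 had a log2 fold change above 0 and 7 below, none was called, and the median was 0.51. The smallest p was that of Chst7, a sulfotransferase, at 15.9, 34.0 and 38.4 CPM against 5.20 and 6.26 CPM (2.36, SE 0.69, adjusted p 0.242). Of 24 genes of growth plate signalling and hypertrophy, 21 were tested, 15 were above 0 and 6 below, and the median was 1.55. Alpl, the alkaline phosphatase of mineralizing cells, was the 1 gene called. It rose, at 58.5, 62.3 and 31.5 CPM in dFLEx against 0.510 and 0.894 CPM in KP (6.19, SE 0.83, adjusted p 0.0480). Of 14 genes of cartilage breakdown, 10 were above 0 and 4 below, none was called, and the median was 0.94. Mmp13, a collagenase of hypertrophic cartilage, had the smallest p, at 460, 559 and 125 CPM against 9.42 and 19.7 CPM (4.71, SE 0.92, adjusted p 0.109). The matrix genes thus had the highest median of the 4 lists, without a test of that difference.

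**Figure D5:**
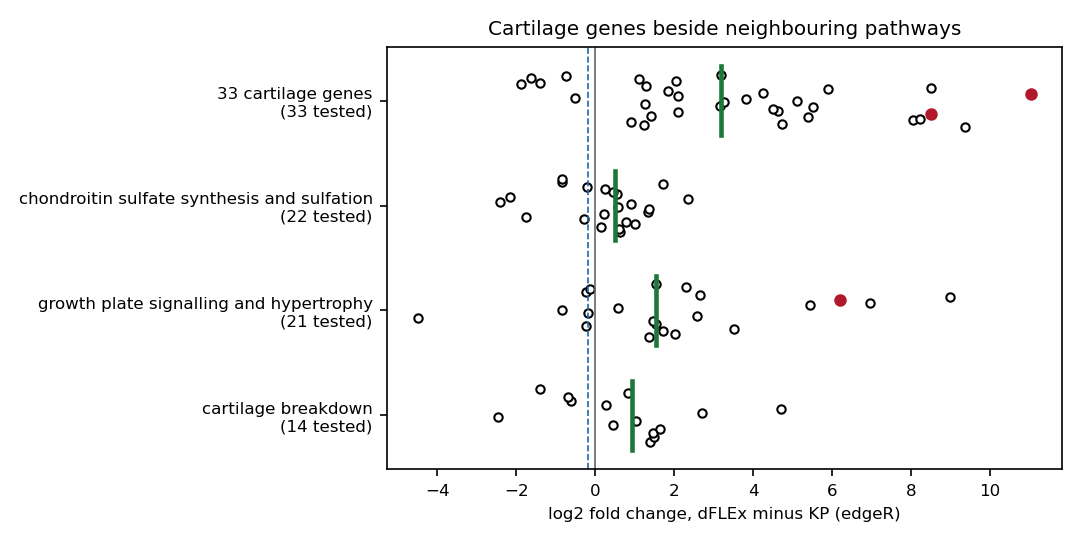
log2 fold changes of the 33 genes and of 3 neighbouring pathways, 1 point per tested gene, with filled points for an adjusted p under 0.05, green bars for the medians and a dashed line for the median of all genes. The medians are 3.19 for the cartilage genes and 0.51, 1.55 and 0.94 for chondroitin sulfate synthesis, growth plate signalling and cartilage breakdown.

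In bulk tumor RNA a larger share of cartilage-like cells and more RNA per cell cannot be told apart, and markers of other cell types differed as well. Of 12 chondrocyte markers, all of them members, 11 had a log2 fold change above 0, and their sum was 789, 1160 and 2549 CPM in dFLEx against 160 and 180 CPM in KP, of which Sox9 alone was 155 and 132 CPM. All 12 had counts in each dFLEx tumor, but not all lay above KP. In 170025 Snorc (0.0756 CPM), Matn1 (0.126 CPM) and Cnmd (0.554 CPM) lay below 3802, and Ucma (0.101 CPM) lay below both KP tumors. Col2a1 and Col9a1 made up 1636 and 641 CPM of the sum in 170025. Snorc and Matn1 were at 0 in 3800. Of 8 osteoblast markers 5 were above 0, and the sum of the 8 ran from 112 to 442 CPM in dFLEx and was 117 and 23.9 CPM in KP, with Bglap2 at 0 in 170019, 170025 and 3800. Among those above 0, Ibsp (9.0), Sp7 (6.95) and Alpl (6.19) lay higher in every dFLEx tumor. Ibsp was at 235, 350 and 45.4 CPM in 170019, 170024 and 170025 against 0.134 and 0.731 CPM in KP. Among those below 0, Dmp1 (-3.87) and Phex (-5.06) lay lower in every dFLEx tumor. Bglap, Bglap2 and Runx2 overlapped between groups, and Runx2 was 57.0 CPM of the sum in 3800. Alpl, Ibsp, Sp7 and Runx2 are also in the growth plate list. All 7 myocyte markers were above 0, at 8109 to 32244 CPM against 1328 and 4005 CPM, and the highest sum was in 170024. Of 5 tendon markers 3 were above 0, at 430 to 632 CPM against 151 and 189 CPM, and all 4 synovial lining markers were above 0, at 124 to 504 CPM against 19.2 and 12.6 CPM, of which Prg4 made up most in dFLEx. All 5 fibroblast markers were above 0, at 555 to 776 CPM against 166 and 721 CPM. All 5 endothelial markers were above 0, at 191 to 493 CPM against 123 and 77.2 CPM. Of 5 Schwann cell markers 4 were above 0, at 13.9 to 47.2 CPM against 13.3 and 22.9 CPM. Of 5 macrophage markers 1 (Cd68) was above 0 and 4 below, at 425 to 590 CPM against 845 and 3394 CPM. C1qa alone was 509 and 3099 CPM of the macrophage sums in 3800 and 3802. The part of muscle, bone, tendon, synovial or other cells in the cartilage values was not tested.

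Promoter sequence was read to see whether the members share a motif of the fusion or of SOX factors. CIC binds octamers of the form TGAATGAA, TGAATGGA, TCAATGAA or TCAATGGA, and SOX proteins bind around ACAAAG. In the 250 bases before the start of the canonical transcript of 21770 protein-coding genes (GENCODE release 39, GRCm39, both strands), 3.04% held a CIC octamer and 15.9% a SOX core. Of the 33 members, 1 held a CIC octamer (3.03%) and 5 held a SOX core (15.2%), so the members' shares were near those of all promoters. The octamer lay in Matn1, 87 bases before its start, and the cores lay in Col10a1, Epyc, Cilp2, Sox5 and Sox6. For 8 members (Col27a1, Col9a3, Epyc, Sox5, Sox6, Runx3, Trps1 and Pth1r) other transcripts start further upstream, so the window lies within the span of the counted gene. Enhancers and other introns, where known SOX9 sites of Col2a1 lie, were not read. The promoters of Cytl1 and Acan are shown because these genes rose, that of Matn1 because it holds the octamer and that of Sox6 because it holds the core nearest to the start of a canonical transcript, 17 bases before it, with matches in capitals.
Cytl1, GRCm39 chr5:37892613-37892862, plus strand: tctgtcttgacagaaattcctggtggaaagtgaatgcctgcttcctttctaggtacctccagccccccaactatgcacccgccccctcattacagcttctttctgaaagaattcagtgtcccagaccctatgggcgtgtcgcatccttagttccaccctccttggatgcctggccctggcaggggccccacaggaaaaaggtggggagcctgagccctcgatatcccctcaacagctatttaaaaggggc
Acan, GRCm39 chr7:78702714-78702963, plus strand: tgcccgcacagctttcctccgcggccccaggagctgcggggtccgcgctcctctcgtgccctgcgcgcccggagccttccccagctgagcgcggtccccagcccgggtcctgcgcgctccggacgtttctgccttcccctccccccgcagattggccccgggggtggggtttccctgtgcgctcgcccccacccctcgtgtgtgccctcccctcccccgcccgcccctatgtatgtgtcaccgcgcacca
Matn1, GRCm39 chr4:130671439-130671688, plus strand: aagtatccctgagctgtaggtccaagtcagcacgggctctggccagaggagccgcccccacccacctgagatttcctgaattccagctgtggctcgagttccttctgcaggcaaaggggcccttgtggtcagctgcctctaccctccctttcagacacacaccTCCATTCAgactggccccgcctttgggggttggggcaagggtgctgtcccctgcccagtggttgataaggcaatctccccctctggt
Sox6, GRCm39 chr7:115445403-115445652, minus strand: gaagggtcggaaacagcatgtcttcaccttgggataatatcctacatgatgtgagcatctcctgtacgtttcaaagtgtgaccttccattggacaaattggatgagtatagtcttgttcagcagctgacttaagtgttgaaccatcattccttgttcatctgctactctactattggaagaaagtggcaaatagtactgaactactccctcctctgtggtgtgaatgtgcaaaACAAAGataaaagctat
No base is in capitals for Cytl1 and Acan because neither window holds a match. In Matn1 the octamer is read on the opposite strand.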

How the data were processed

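Gene counts were made by the authors from 150 bp paired-end, rRNA-depleted libraries. Per the submitters' notes and the file headers, reads were trimmed with Trimmomatic 0.39, aligned with STAR 2.7.10a to mouse genome mm39 with the construct added, and counted over exons with featureCounts of Subread 2.0.3, without strand, with both mates required and each mate counted. The deposited table holds raw counts of 56750 features, of which 98.7% matched a GENCODE symbol (release 39). The members and the lists set beside them were chosen with earlier results of these data known.

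Duplicate counts were summed per tumor, because duplicates share 1 RNA, and the tumor was the replicate. Nothing but the tumor number says that tumors came from separate animals. dFLEx (n = 3) was compared with KP (n = 2) by edgeR 4.0.16 (filterByExpr, TMM, quasi-likelihood F test, R 4.3.3), with Benjamini-Hochberg adjustment over 24743 genes and a threshold of 0.05. For the SE, each log2 fold change was divided by sqrt(F). The limit for a count of 0 is 3 counts and covers counting error only. Each mate was counted, so 1 fragment can add more than 1 count, and a limit in fragments would be a higher CPM. All 33 members were named, and of the neighbouring lists those with an adjusted p under 0.05 or, where none passed, the smallest p. Alternatives were other scalings, no filter, DESeq2 1.42.0, limma-voom (limma 3.58.1), libraries as samples with and without the duplicate number as a block, 1 library per tumor, counts divided by 2 (chosen after seeing the data) and each tumor left out. The edgeR and DESeq2 steps were tested on simulated data. The study states DESeq2 and not how duplicates were treated. The rest of the KP genotype is not reported here.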

Additional observations from a re-analysis of the deposited data

How the results depend on the processing

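The number of members called, 2 as reported, was 1 with upper-quartile scaling, 16 without the filter on low counts, 15 with DESeq2 on tumor sums, 15 with libraries as independent samples, 7 with limma-voom and 4 with the first library of each tumor, and it ran from 0 to 7 as tumors were left out in turn. The share of all genes called, 0.182% as reported, was 0.202%, 1.98%, 6.66%, 17.1%, 2.78% and 0.335% in the same order, and 0% to 1.64% as tumors were left out. The median log2 fold change of the set ran from 2.25 to 5.13 as tumors were left out, and from 2.75 to 3.91 under the other alternatives. With the duplicate number as a replicate block on independent libraries there were 14 calls (12 higher, 2 lower), beside 12.7% of all genes. The number names a library and pairs no tumors: duplicate differences correlated between -0.0126 and 0.0162 over tumor pairs, so the block tests no pairing. Ucma was at -0.11 under limma-voom. As tumors were left out, log2 fold changes crossed 0 for Cilp (-1.31 to 1.81), Susd5 (-2.76 to 1.29) and Trps1 (-1.27 to 0.29), above 0 in each case without 3800, and the cause was not tested. Library totals, DESeq2 size factors in edgeR and counts divided by 2 left 2 calls, Acan and Cytl1. The shares of all genes called were 0.137%, 0.198% and 0.29% in that order. Against library totals TMM moved the median of all genes by 0.30. With 3 tumors against 2, and 1 of those read from a single library, fold changes of members with few KP counts, among them Acan, Hapln3 and Matn3, carry the counting error of those counts. In 3802 the limit of 3 counts is 0.122 CPM, and it would be higher in fragments because each mate was counted.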
